A study of Rattus norvegicus with 9 samples.

Results

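The comparison described here set the left ventricle of spontaneously hypertensive rats given oxymatrine (SHR_OMT in the labels) against that of untreated Wistar Kyoto rats (WKY), the normotensive strain usually paired with them. It used 6 of the 9 samples of the series, 3 per group, and the 12451 genes, of 19294 with values, whose mean FPKM over all 9 samples was at least 1. FPKM are the reads estimated for a gene, scaled by its length and by the size of the library. The other 3 samples, untreated spontaneously hypertensive rats (SHR), were used to divide the strain differences into those that remained in treated ventricles, those that fell away and those that were new.

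SHR rats inherit high blood pressure, and their left ventricle thickens under the load. Oxymatrine is an alkaloid of Sophora roots. All 3 groups were left ventricle, and the labels give no dose, duration, age or sex. No WKY group given oxymatrine was analysed here, so in treated SHR against WKY the strain and the treatment cannot be told apart. Labels number the replicates but do not say that they were separate animals, so the p-values here rest on sample spread that may be technical. In bulk tissue, fewer cells of a type and less RNA per cell cannot be told apart.

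Ventricular muscle genes stood where the labelled tissue puts them. The ventricular light chain gene Myl2 had 6942 to 7613 FPKM in WKY and 7337 to 8401 in treated SHR. The 8 ventricular markers summed to 39630 to 40290 FPKM in WKY and 36740 to 41210 in treated SHR. The 7 atrial markers, Nppa among them, summed to 1273 to 2637 and 983.5 to 1936. Of these 7, only Bmp10 was below the filter, at or below 0.62 FPKM in all 9 libraries, and the other 6 were expressed. The libraries' FPKM sums lay between 587526 and 606633, and read depth is unknown because no counts were used. The first principal component (46.2% of the variance) parted the WKY samples from both SHR groups. Across genes, log2(FPKM + 1) correlated at 0.974 to 0.98 between treated SHR and WKY, against 0.988 to 0.991 within groups.

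Treated SHR and WKY ventricles differed in 24.9% of tested genes, and most of the large differences were also those of untreated SHR. Per gene, limma's moderated test on log2(FPKM + 1), fitted over the 3 groups, called 3095 genes at a Benjamini-Hochberg adjusted p of 0.05 over all genes tested. In treated SHR 1274 genes (10.2%) were higher and 1821 (14.6%) lower, and 150 (1.2%) differed by at least 1 on the log2 scale. Untreated SHR against the same WKY samples gave 4215 called genes (33.9%), 1343 higher (10.8%) and 2872 lower (23.1%). Leaving out WKY replicate 1 or treated replicate 1 reduced the treated count from 3095 to 1893 or 2024. The split by direction depended on the scaling of the libraries. With median-of-ratios scaling 1651 genes were higher and 1377 lower in treated SHR, and with quantile normalization 1557 and 1523. For untreated SHR these splits were 2033 and 1789, and 1881 and 1812.

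Of the genes called in untreated SHR, 2597 were called in the same direction in treated SHR and are named remaining here (20.9% of tested genes, 1006 higher and 1591 lower than WKY). Another 1618 were called in untreated SHR only and are named fallen away (13.0%, 337 higher and 1281 lower). A further 498 were called in treated SHR only and are named new (4.0%, 268 higher and 230 lower). No gene was called in opposite directions. Leaving out 1 sample moved the remaining class to 1590 (without WKY replicate 1), the fallen-away class to 948 (without untreated replicate 2) and the new class to between 225 (without treated replicate 1) and 791 (without untreated replicate 2). Both comparisons used the same WKY samples, so an error in WKY enters both. Of the 196 untreated calls with a log2 difference of at least 1 (1.57% of tested genes), 177 (90.3%) were also called in treated SHR, and of the 150 treated calls of that size, 140 (93.3%) were also called in untreated SHR.

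A call on one side of a threshold is no difference between the groups, and treated against untreated SHR, where WKY drops out, tests that difference. It called 30 genes (0.241%), 19 higher (0.153%) and 11 lower (0.0883%) in treated SHR, with 1512 at an unadjusted p under 0.05. Without any 1 sample other than WKY replicates 2 and 3 the 30 became 6 to 19, the 6 without treated replicate 1. Only 8 of the 1618 fallen-away genes and 10 of the 498 new ones were among the 30. The medians show how small most of the shifts were. Fallen-away genes that were higher in untreated SHR had a median log2 difference from WKY of 0.30 there and 0.17 in treated SHR, and those that were lower had −0.31 and −0.17. Of the fallen-away genes, 163 of the 337 and 422 of the 1281 still had an adjusted p under 0.1 in treated SHR. The median over all tested genes was −0.04 in treated SHR against WKY and −0.08 in untreated SHR. With median-of-ratios scaling 736 of the 1618 genes were still in the fallen-away class, 276 of the 498 in the new class and 2090 of the 2597 in the remaining class.

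**Figure D1:**
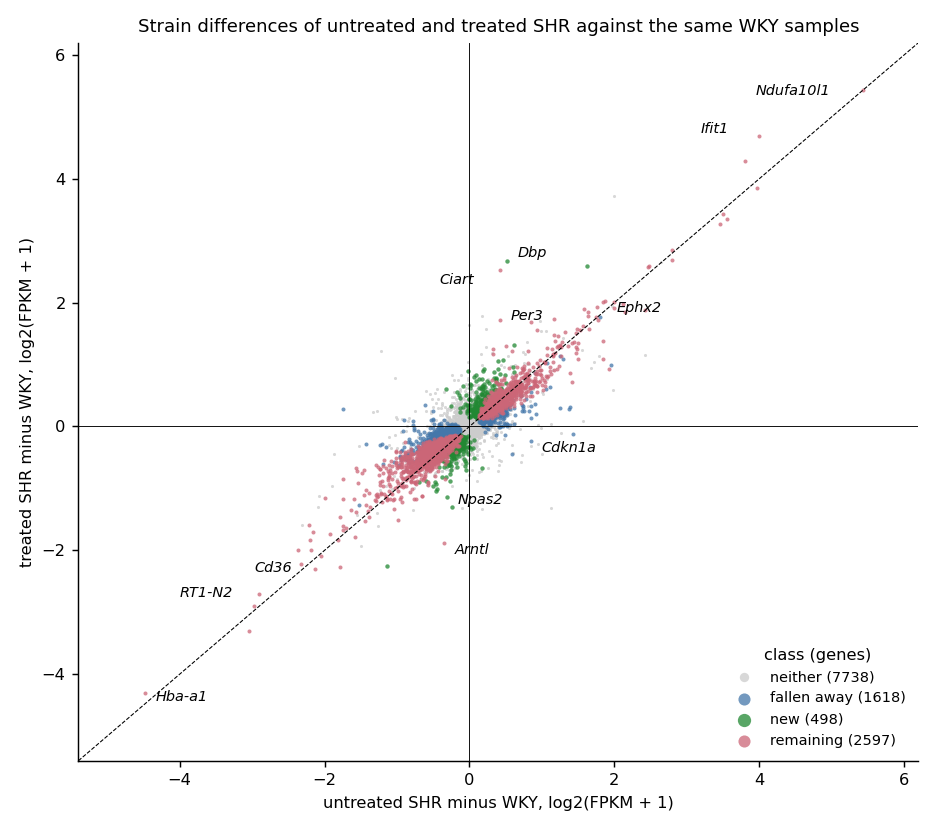
Each point is 1 of 12451 genes, with the log2(FPKM + 1) difference of untreated SHR minus WKY on the x axis and of treated SHR minus WKY on the y axis; colours give the class and the dashed line marks equal differences. Remaining genes lie along the line out to Ndufa10l1 at 5.44 on both axes, while Dbp and Ciart lie far above it and Arntl far below.

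The differences that remained were led by genes near the floor in one strain and well expressed in the other. Ndufa10l1, a relative of a complex I subunit gene of the respiratory chain, had 0.55, 1.57 and 1.03 FPKM in the WKY samples, 81.1, 92.1 and 85.8 in untreated SHR and 83.7, 83.1 and 91.7 in treated SHR. Its log2 difference of treated SHR from WKY was 5.44 (SE 0.149, adjusted p = 9.16e-08), and treated and untreated SHR overlapped. Ifit1, an interferon-induced gene that binds foreign RNA, had 0.16, 0.17 and 0.11 FPKM in WKY, 16.7, 14.7 and 20.96 in untreated SHR and 26.9, 25.7 and 33.5 in treated SHR. All 3 treated samples were above every untreated SHR sample, and that difference had an adjusted p of 0.0901. Ephx2, whose soluble hydrolase clears vasodilator epoxides made from arachidonic acid, stood at 9.33, 11.1 and 10.1 FPKM in WKY and 45.99, 41.8 and 45.04 in treated SHR (log2 difference 2.02, adjusted p = 1.02e-06).

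Other genes well above WKY in treated SHR were Ptgfr, the prostaglandin F receptor (log2 difference 2.68), Tcp11x2 (2.85), the methyltransferase gene Setd4 (2.60), the class I histocompatibility gene RT1-CE2 (2.02), Creg1, a secreted glycoprotein gene (1.93), Ccdc92 (1.92) and Bcl2l15, of the BCL2 family (1.90). The carbonyl reductase gene Cbr3 was listed at 0 in all 3 WKY samples and had 2.85, 2.59 and 3.66 FPKM in untreated SHR and 2.87, 3.27 and 2.99 in treated SHR. These 8 genes were picked among called genes whose treated SHR and WKY samples did not overlap (24.6% of all tested genes). In none of the 8 did the difference between treated and untreated SHR pass the test.

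Among genes lower in treated SHR, Cd36, through which long-chain fatty acids enter the muscle cell, had 872, 785 and 943 FPKM in WKY, 193, 202 and 195 in untreated SHR and 166, 181 and 178 in treated SHR. Every treated value was below every untreated one, and the treated samples differed from WKY by −2.30 on the log2 scale (SE 0.0675, adjusted p = 9.16e-08); the further step from untreated SHR, −0.17, had an adjusted p of 0.362. Endog, which encodes a mitochondrial nuclease, stood at 47.9, 42.3 and 54.6 FPKM in WKY and 14.7, 13.3 and 16.1 in treated SHR (log2 difference −1.65, adjusted p = 6.86e-06). Retsat, the retinol saturase gene, stood at 153, 147 and 187 FPKM in WKY and 54.95, 50.5 and 44.97 in treated SHR. The chromatin gene Hmgb2 stood at 28.7, 22.7 and 22.3 FPKM in WKY and 5.69, 6.21 and 6.64 in treated SHR. Serhl2, a serine hydrolase-like gene, stood at 67.7, 71.5 and 67.1 FPKM in WKY and 13.5, 14.5 and 13.7 in treated SHR. All 4 genes were below WKY in untreated SHR too, and treated and untreated samples overlapped in each.

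M6pr, the small mannose 6-phosphate receptor that carries lysosomal enzymes, was among the largest differences and among the most variable, with 17.9, 7.98 and 37.3 FPKM in WKY, 0.14, 5.17 and 0.65 in untreated SHR and 0.52, 1.48 and 0.78 in treated SHR (log2 difference −3.31, SE 0.637). Efcab6 had a log2 difference of −2.27, Ccdc78 of −1.83 and Rims1, a gene of the presynaptic release site, of −2.10. Hba-a1, 1 of the alpha globin copies in the table, had 11.6, 31.5 and 26.2 FPKM in WKY and was listed at 0 in all untreated SHR samples and in 2 of 3 treated ones, while Hba1, another copy, ran from 1031 to 2524 FPKM over the 9 samples. The histone gene Hist1h2bk stood at 6.66, 7.23 and 6.64 FPKM in WKY and 0.16, 0 and 0 in treated SHR. The RT1 genes, Hist1h2bk, Hba-a1 and Ndufa10l1 each have close copies that could share estimated reads, so the level of a single copy is uncertain.

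**Figure D2:**
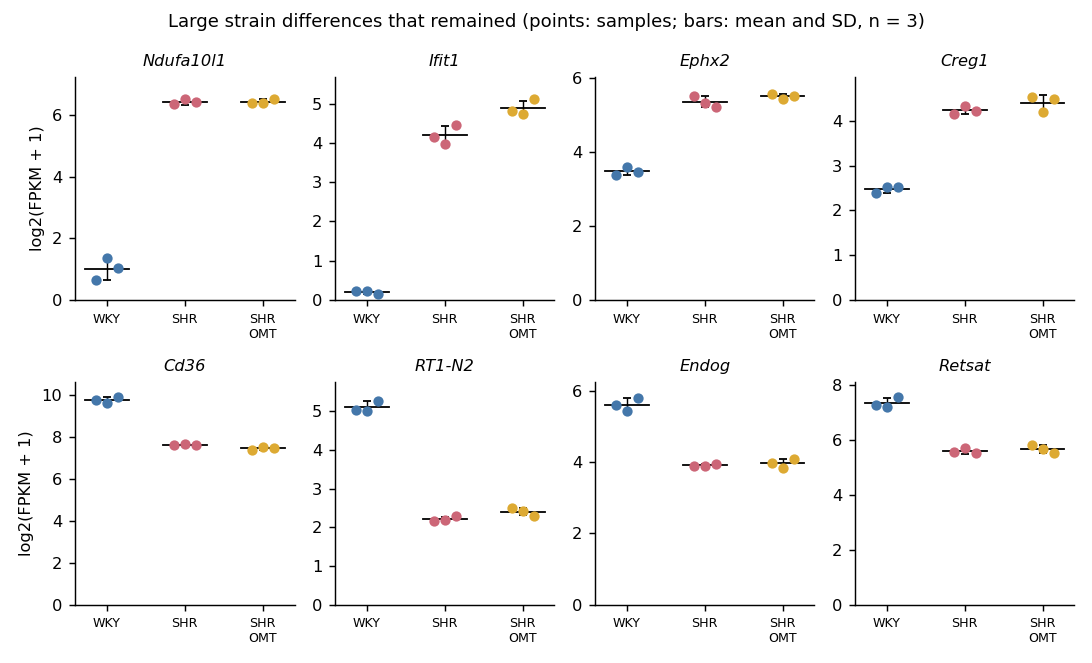
Points are the 3 samples of each group on the log2(FPKM + 1) scale, with the mean and SD as bars, for 8 genes whose strain difference remained. In each of the 8 panels the treated SHR samples lie with the untreated SHR samples and apart from WKY; Ifit1 and Cd36 stand a little further from WKY with treatment.

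Most genes of muscle contraction and energy use that differed from WKY in treated SHR also differed without treatment. The heart meets most of its energy need by oxidising fatty acids, and calcium released from the sarcoplasmic reticulum drives each beat. Of 38 fatty acid uptake and oxidation genes tested, 24 were higher in treated SHR and 3 lower, with a median log2 difference of 0.25; 18 were higher and 4 lower in untreated SHR (median 0.18). Of the 38, 19 remained, 3 fell away and 8 were new, and none passed the test of treated against untreated SHR. Besides Cd36, those with a small p included Acsl1, which activates long-chain fatty acids and stood at 201, 184 and 198 FPKM in WKY and 276, 268 and 279.5 in treated SHR (log2 difference 0.50), the thiolase gene Acaa1 (−0.62) and Acadm, the medium-chain dehydrogenase (0.48). Cpt1b, the mitochondrial entry step in muscle, differed by 0.19 (adjusted p = 0.0259). Its call did not hold without WKY replicate 1, 2 or 3 or treated replicate 2 or 3. The third gene lower in treated SHR was Ucp3, a mitochondrial carrier of the uncoupling protein family, with 8.57, 11.8 and 12.7 FPKM in WKY, 6.16, 10.1 and 7.23 in untreated SHR and 3.52, 7.52 and 4.34 in treated SHR (adjusted p = 0.0158). Without WKY replicate 1 or treated replicate 1, 14 of the 38 genes were called higher. Over all tested genes 10.2% were higher and 14.6% lower.

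In the citric acid cycle 7 of 19 genes were higher and none lower in either strain comparison, and the 7 were the same genes. Among all tested genes 10.2% were higher and 14.6% lower in treated SHR, and 10.8% and 23.1% in untreated SHR. Ogdh, a subunit of the oxoglutarate dehydrogenase complex, differed by 0.75, Idh3a by 0.42 and Cs, citrate synthase, by 0.50. In branched-chain amino acid and ketone breakdown 12 of 25 were higher and none lower, led by the ketone body enzyme gene Bdh1 (0.76), against 10 and none in untreated SHR. Leaving out 1 sample gave 7 (without WKY replicate 1 or treated replicate 3) to 13 higher in treated SHR, and 6 (without untreated replicate 1) to 12 in untreated SHR. Of 30 genes of glucose uptake and glycolysis, 7 were higher and 3 lower in treated SHR, against 14 and 4 in untreated SHR. Of the 30, 8 fell away, against 13.0% of all tested genes. None of the 30 passed the test of treated against untreated SHR. Eno1, the broadly expressed enolase, was higher (log2 difference 1.57) and the muscle enolase Eno3 lower (−0.72), and Pfkl, a phosphofructokinase gene, and the glucose transporter gene Slc2a1 were higher (0.72 and 0.41). Without WKY replicate 1 or 3 or treated replicate 3, 4 were higher in treated SHR. With median-of-ratios scaling the list's counts were 10 and 2, and 16 and 1. Complex I genes gave 4 higher and 5 lower of 37, near the share of all genes, with Ndufv3 at 0.53 and Ndufs1 at 0.37. In untreated SHR 4 were higher and 4 lower, a split that became 8 and none with median-of-ratios scaling.

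Of 25 contractile and calcium-handling genes, 10 were higher and 1 lower in treated SHR (12 and 1 in untreated SHR), and 9 remained; over all tested genes 10.2% were higher and 14.6% lower. Leaving out 1 sample gave 6 (without WKY replicate 1 or treated replicate 3) to 11 higher. Ryr2, the calcium release channel, had 62.1, 57.4 and 58.9 FPKM in WKY, 87.7, 109 and 94.8 in untreated SHR and 91.1, 90.04 and 94.3 in treated SHR. The fast myosin heavy chain gene Myh6 stood at 2192, 2271 and 2321 FPKM in WKY and 2964, 2849 and 3131 in treated SHR (adjusted p = 0.0124). The slow chain gene Myh7 had 2310.0, 2029 and 2135 in WKY, 1554, 1853 and 1912 in untreated SHR and 1818, 1420.0 and 1638 in treated SHR, and was called lower in treated SHR only (adjusted p = 0.0203, against 0.0624 in untreated SHR). Quantile normalization, or leaving out WKY replicate 1 or treated replicate 2, ended the call of Myh7. Atp2a2, which pumps calcium back into its store, differed by 0.26 (adjusted p = 0.0379) and lost its call in 8 of 18 alternatives. Camk2d, a calcium-dependent kinase gene, differed by 0.33, and the junction gene Jph2 by 0.27. Of 25 ion channel and gap junction genes, 9 were higher and 1, Gja5, lower in treated SHR (9 and 3 in untreated SHR), and 6 were higher without WKY replicate 1 or treated replicate 1 or 3. The pacemaker channel gene Hcn2 differed by 0.82, the potassium channel genes Kcnk3 and Kcnh2 by 0.68 and 0.50, and Kcnip2, a subunit of the transient outward channel, by 0.49.

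Genes induced in the thickened ventricle remained in part. Of 24 tested, 7 were higher and 2 lower in treated SHR (median 0.17), against 11 and 3 in untreated SHR (median 0.41). Only 1 of the 24 passed the test of treated against untreated SHR, lower in treated SHR, as were 0.0883% of all tested genes. Among all tested genes 10.2% were higher and 14.6% lower in treated SHR, and 10.8% and 23.1% in untreated SHR. Without WKY replicate 3 or treated replicate 3, 4 of the 24 were higher in treated SHR. Csrp3, the muscle LIM protein gene, had 1018, 1001 and 978 FPKM in WKY, 1544, 1719 and 1878 in untreated SHR and 1404, 1385 and 1587 in treated SHR. The actin-binding genes Xirp1 and Xirp2 differed from WKY by 0.55 and 0.80 in treated SHR. Acta1, the skeletal alpha actin that the loaded ventricle re-expresses, had 902, 941 and 704 FPKM in WKY, 1623, 1363 and 2755 in untreated SHR and 1339, 1711 and 1904 in treated SHR (adjusted p = 0.0188 against WKY). That call was lost without WKY replicate 3, treated replicate 2 or treated replicate 3, with adjusted p of up to 0.063. Mt2A, a metallothionein gene, differed by 1.56, and Ddah1, which breaks down an inhibitor of nitric oxide synthesis, by −0.84.

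The natriuretic peptide genes Nppa and Nppb, the usual markers of a stretched heart wall, passed the test in neither strain comparison. Nppa had 2606, 2097 and 1257 FPKM in WKY, 969.8, 3754 and 4450.0 in untreated SHR and 967, 1917 and 1192 in treated SHR, so the untreated samples spanned nearly the whole range of the 9. Nppb had 526, 495 and 436 in WKY, 558, 657 and 691 in untreated SHR and 334, 579.6 and 471 in treated SHR, and the lowest untreated sample lay below the highest treated one. The adjusted p of treated SHR against WKY was 0.482 for Nppa and 0.691 for Nppb. Ankrd1, a stretch-induced nuclear protein gene, had 3077, 3341 and 2540.0 FPKM in WKY, 3817, 3977 and 4888 in untreated SHR and 3550.0, 3857 and 3674 in treated SHR. It was called higher than WKY in untreated SHR (log2 difference 0.50, adjusted p = 0.00989) and not in treated SHR (0.32, adjusted p = 0.0759), and the adjusted p between the SHR groups was 0.571. Pdk4, which turns muscle away from glucose oxidation, had 34.7, 29.8 and 68.2 FPKM in WKY, 55.4, 104 and 71.6 in untreated SHR and 44.01, 70.1 and 54.1 in treated SHR (adjusted p = 0.374 in treated SHR against WKY).

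Of 42 matrix genes tested, none was higher and 8 were lower in treated SHR, against 1 and 11 in untreated SHR; over all tested genes 10.2% were higher and 14.6% lower in treated SHR. Leaving out 1 sample gave 4 (without WKY replicate 1) to 12 lower (without treated replicate 2), and up to 3 higher (without treated replicate 3). The basement membrane collagen genes Col4a1 and Col4a2 differed from WKY by −0.49 and −0.41, the elastin gene Eln by −0.80, the membrane metalloproteinase gene Mmp14 by −0.57 and Col15a1 by −0.56. Col1a1 stood at 47.3, 62.95 and 55.2 FPKM in WKY and 50.8, 72.9 and 50.7 in treated SHR (adjusted p = 0.827), and Col3a1 had 221, 255 and 241 and 173, 259 and 184 (adjusted p = 0.399). Postn, a matrix gene of activated fibroblasts, stood at 10.3, 7.91 and 7.37 FPKM in WKY and 15.9, 22.1 and 8.07 in treated SHR (adjusted p = 0.202). Tgfb1, which encodes the growth factor that drives collagen synthesis, had 28.3, 28.03 and 29.9 FPKM in WKY, 25.1, 21.2 and 23.5 in untreated SHR and 29.2, 29.4 and 23.2 in treated SHR. Its call in untreated SHR (adjusted p = 0.0371) was lost in 9 of 18 alternatives, both other scalings among them, and the adjusted p was 0.55 in treated SHR against WKY and 0.408 between the SHR groups. Beside these values, 3 of 8 fibroblast markers and 9 of 11 endothelial markers were lower in treated SHR and none was higher. The summed FPKM of the 11 endothelial markers ran from 1008 to 1196 in WKY and from 832 to 896 in treated SHR, a range like that of untreated SHR (811 to 907), and Vwf stood at 47.4, 43.9 and 56.7 FPKM in WKY and 26.3, 28.7 and 26.5 in treated SHR. The part of these markers in the matrix values was not tested.

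Ace, the angiotensin converting enzyme gene, stood at 6.29, 9.92 and 6.12 FPKM in WKY and 4.69, 7.09 and 5.5 in treated SHR (adjusted p = 0.313), and Agt, the angiotensin precursor gene, stayed at or below 0.68 FPKM in all 9 samples and was not tested. Of 24 genes of the renin, endothelin and adrenergic systems, 4 were higher and 8 lower in treated SHR, against 4 and 10 in untreated SHR. The shares of all tested genes were 10.2% higher and 14.6% lower in treated SHR, and 10.8% and 23.1% in untreated SHR. The muscarinic receptor gene Chrm2 and the adrenergic receptor genes Adra1a and Adra1b were higher, by 0.80, 0.60 and 0.35. The natriuretic peptide receptor genes Npr1 and Npr2 were lower, with log2 differences of −0.46 and −0.33. All 5 had been called in the same direction in untreated SHR.

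Of the pathway lists, interferon response genes had the most members whose strain difference remained, and their median difference was smaller than in untreated SHR. Interferons induce antiviral effectors and the machinery of antigen presentation through factors that bind response elements in promoters. Of 37 tested genes, 30 were lower in treated SHR and 1, Ifit1, was higher (median −0.51), against 35 lower and 1 higher in untreated SHR (median −0.89). The shares of all tested genes were 14.6% lower and 10.2% higher in treated SHR, and 23.1% and 10.8% in untreated SHR. In this list 30 remained, 6 fell away and 1 was new (20.9%, 13.0% and 4.0% of all tested genes). Ifi44l, an interferon-induced gene, had 18.1, 21.3 and 20.8 FPKM in WKY, 2.8, 2.77 and 3.78 in untreated SHR and 4.09, 3.77 and 5.05 in treated SHR. Every treated sample except the second was above all untreated ones, and all stayed far below WKY. Ifit2 had 38.4, 39.99 and 38.6 FPKM in WKY, 18.1, 18.3 and 20.1 in untreated SHR and 24.03, 25.8 and 26.8 in treated SHR, so the 3 groups did not overlap. Parp9 and Ifi27, both induced by interferon, differed from WKY by −0.76 and −0.75 in treated SHR.

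The promoter of Ifi44l is shown because this gene was the lowest of the interferon genes against WKY and its promoter holds the letters of an interferon response element. It covers 250 bases before to 50 bases after the gene's start in RefSeq, build GRCr8, chr2:243328473-243328772, plus strand, written from 5′ to 3′ on the gene's strand, with GAAA and GAAA spaced by 2 bases of any kind, on either strand, in capitals.
Ifi44l: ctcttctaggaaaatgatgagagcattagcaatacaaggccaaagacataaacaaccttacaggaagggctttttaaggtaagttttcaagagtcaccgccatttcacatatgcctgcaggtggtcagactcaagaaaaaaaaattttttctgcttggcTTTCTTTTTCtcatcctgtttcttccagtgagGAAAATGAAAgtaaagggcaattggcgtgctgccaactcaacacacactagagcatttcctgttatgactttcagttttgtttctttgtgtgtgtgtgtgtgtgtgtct
Of 26 interferon genes with a promoter in the RefSeq table, 15 (57.7%) held this motif in the same window, against 293 of 9857 tested genes (2.97%). Among the 30 that were lower in treated SHR, 20 had a promoter there and 10 held the motif. A match is a description of letters and not a site shown to work in these hearts.

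The test of treated against untreated SHR called 0.153% of all tested genes higher and 0.0883% lower. Treated SHR had higher levels of 5 of the 37 interferon genes than untreated SHR, and none was lower. They were Mx2 (log2 difference 0.89), Oasl (0.93), Usp18, a brake on interferon signalling (0.67), Rnf213 (0.44) and Ifit2 (0.42), with adjusted p from 0.0324 to 0.0414. All 5 calls were lost with either other scaling, and leaving out 1 sample gave 0 to 7 such calls, the 7 without untreated replicate 3. Mx2 had 93.6, 114 and 111 FPKM in WKY, 33.99, 30.99 and 41.2 in untreated SHR and 64.6, 56.02 and 79.01 in treated SHR. Antigen presentation genes followed the same order, with 19 of 29 lower and 2 higher in treated SHR (median −0.46) against 25 and 1 in untreated SHR (median −0.76). Among all tested genes 14.6% were lower in treated SHR and 23.1% in untreated SHR. The class I genes RT1-N2, RT1-CE7 and RT1-CE5 differed by −2.70, −1.09 and −1.30 in treated SHR, and RT1-A1 by 1.29. RT1-T24-3 had 174, 182 and 190.0 FPKM in WKY, 84.2, 78.6 and 88.3 in untreated SHR and 114, 111 and 131 in treated SHR, and was the 1 gene of the list called in treated against untreated SHR (adjusted p = 0.0324, lost with median-of-ratios scaling). None of 10 macrophage markers was called in treated SHR against WKY, where their summed FPKM ran from 227 to 476 against 253 to 293 in WKY. Without treated replicate 3, the lowest of the treated samples in all 10 markers, 7 of the 10 were called higher. Their part in the interferon and antigen presentation values was not tested.

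**Figure D3:**
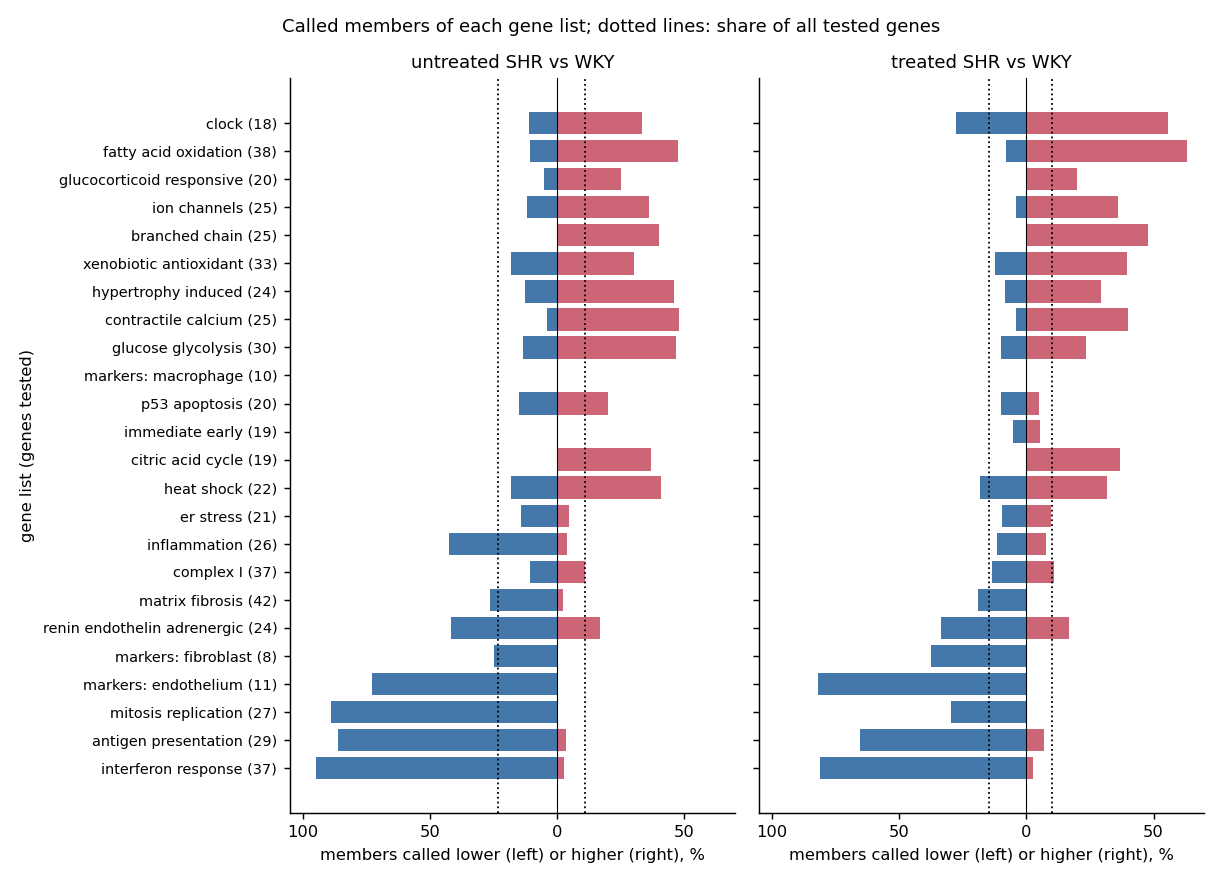
Bars give, for each gene list, the percentage of tested members called higher (red) or lower (blue) than WKY, for untreated SHR on the left and treated SHR on the right; dotted lines give the same shares over all tested genes. Interferon, antigen presentation and endothelial lists stay far to the left in both panels, mitosis and replication drops from 24 to 8 of 27 called lower, and the clock list grows in both directions.

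Genes of cell division had the most members that fell away. Of 27 genes of mitosis and DNA replication, 24 were lower in untreated SHR (median −0.54) and 8 in treated SHR (median −0.35), so 16 fell away, and none was higher in either. Over all tested genes 23.1% were lower in untreated SHR and 14.6% in treated SHR, and 13.0% fell away. None of the 27 passed the test of treated against untreated SHR. Pcna, the replication clamp, had 47.4, 46.2 and 48.3 FPKM in WKY, 35.1, 37.2 and 37.5 in untreated SHR and 41.6, 37.6 and 35.8 in treated SHR, and remained. Nusap1, Tpx2 and Ube2c, which act at the mitotic spindle or in exit from mitosis, differed by −0.41, −0.65 and −0.90 in treated SHR. Mcm2, of the replicative helicase, differed by −0.45. The number lower in treated SHR ran from 2 (without WKY replicate 1) to 12 (without untreated replicate 2) when 1 sample was left out.

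Genes whose strain difference fell away by a tested amount were few. Cdkn1a, the cyclin-dependent kinase inhibitor p21, had 27.98, 26.4 and 33.4 FPKM in WKY, 54.6, 63.3 and 43.4 in untreated SHR and 26.9, 23.3 and 23.4 in treated SHR. Treated SHR stood −1.09 from untreated SHR on the log2 scale (SE 0.133, adjusted p = 0.0162) and −0.24 from WKY (adjusted p = 0.209). Rcan1, a feedback inhibitor of calcineurin that rises with calcineurin activity in the loaded heart, had 247, 237 and 298 FPKM in WKY, 489, 486 and 504 in untreated SHR and 308, 335 and 257 in treated SHR. All untreated samples were far above the other 6, and treated SHR differed from untreated SHR by −0.72 (adjusted p = 0.0324) and from WKY by 0.20 (adjusted p = 0.189).

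Uck2, which encodes a uridine and cytidine kinase, had 6.76, 6.11 and 6.28 FPKM in WKY, 9.15, 10.3 and 10.1 in untreated SHR and 6.76, 6.85 and 5.91 in treated SHR. Ppp1r3c, the subunit that takes a phosphatase to glycogen, had 66.8, 70.8 and 78.8 FPKM in WKY, 98.8, 96.8 and 98.4 in untreated SHR and 71.3, 70.5 and 75.9 in treated SHR. In both genes the treated samples lay among or close to the WKY ones, and the adjusted p of treated against untreated SHR was 0.0324 for each. Asph, whose locus encodes an aspartate hydroxylase and the calcium store protein junctin, had 72.9, 70.5 and 72.1 FPKM in WKY, 93.2, 104 and 104 in untreated SHR and 78.2, 79.03 and 79.2 in treated SHR. Its treated samples lay between the other groups without overlap (adjusted p = 0.0324 against untreated SHR and 0.0837 against WKY).

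In the other direction, Oasl, of the oligoadenylate synthetase-like family, had 5.73, 7.66 and 7.42 FPKM in WKY, 2.16, 1.97 and 3.2 in untreated SHR and 5.12, 5.35 and 6.01 in treated SHR. Rgs16, which shortens G protein signals, had 7.16, 5.24 and 8.36 FPKM in WKY, 3.54, 3.58 and 3.49 in untreated SHR and 7.48, 7.92 and 6.48 in treated SHR. Both passed the test of treated against untreated SHR (adjusted p = 0.0414 for each), and treated samples overlapped WKY in both. With either other scaling neither passed. The eighth gene of this kind was the unnamed locus LOC100909761. These 8 calls were sensitive to single samples: over 18 alternatives (17 for Oasl and LOC100909761) Cdkn1a lost its call in 7, Uck2 and LOC100909761 in 9, Ppp1r3c and Rcan1 in 10, Asph and Rgs16 in 12 and Oasl in 13.

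Other fallen-away genes with a small p did not pass the test of treated against untreated SHR. Tnfrsf12a, the receptor of the cytokine TWEAK, had 17.9, 15.4 and 17.3 FPKM in WKY, 27.1, 31.97 and 35.4 in untreated SHR and 18.3, 21.96 and 15.9 in treated SHR (adjusted p = 0.0693). The chaperone gene Dnajb5 had 29.5, 30.7 and 28.5 FPKM in WKY, 36.6, 42.5 and 40.4 in untreated SHR and 30.2, 32.2 and 30.7 in treated SHR (adjusted p = 0.0762). Cyp2e1, a cytochrome P450 gene, had 10.7, 12.3 and 6.3 FPKM in WKY, 2.47, 2.98 and 3.17 in untreated SHR and 7.33, 9 and 6.64 in treated SHR (adjusted p = 0.0734), and Sostdc1, a secreted antagonist of bone morphogenetic proteins, had 2.28, 3.02 and 1.42 FPKM in WKY, 0.71, 0.73 and 0.64 in untreated SHR and 2.67, 2.19 and 2.42 in treated SHR (adjusted p = 0.0524). These 4 genes were picked for a small p in treated against untreated SHR. Their treated samples did not overlap the untreated ones, as was true of 17.2% of all tested genes. The remaining ones of the rule were Tcirg1, Sertad1, Cyb5r2, Hes2 and Cpa6, with adjusted p of 0.0671 to 0.106.

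Strain differences also narrowed without leaving the called range. Enah, which promotes actin filament growth, had 30.4, 25.4 and 29.3 FPKM in WKY, 64.8, 80 and 88.1 in untreated SHR and 45.97, 50.3 and 45.7 in treated SHR, with no overlap between any of the 3 groups (adjusted p = 0.044 for treated against untreated SHR). The call of Enah between the SHR groups was lost in 13 of 18 alternatives, quantile normalization among them. Gprc5b, an orphan receptor gene, had 11.6, 10.7 and 10.4 FPKM in WKY, 5.04, 5.9 and 5.25 in untreated SHR and 8.69, 8.86 and 9.44 in treated SHR (adjusted p = 0.0098 between the SHR groups, a call lost in 2 of 18 alternatives). Its call in treated SHR against WKY (adjusted p = 0.0322) was lost in 8 of 18 alternatives, both other scalings among them. With RT1-T24-3, Ifit2, Usp18, Rnf213 and Mx2, described with their lists, these were the 7 of the 30 genes that remained called against WKY at a smaller difference.

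**Figure D4:**
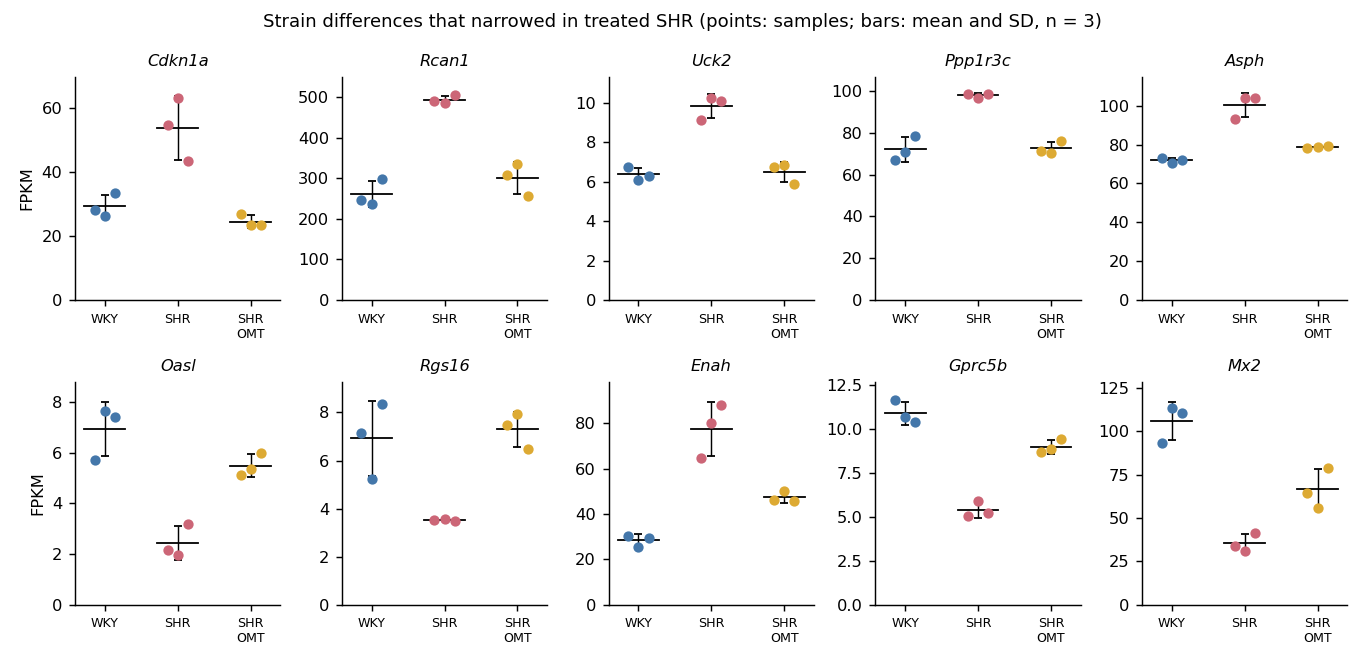
Points are FPKM of the 3 samples of each group, with the mean and SD as bars, for 10 genes called in treated against untreated SHR whose strain difference narrowed. Treated samples lie at or near WKY for Cdkn1a, Uck2, Ppp1r3c and Rgs16, and between the other groups for Enah, Gprc5b and Mx2.

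The new and widened strain differences were led by genes of the circadian clock. In this clock the activators Bmal1 (Arntl in the table) and Clock or Npas2 bind E-box sequences and switch on Per, Cry, Nr1d and Dbp. Products of the Per, Cry and Nr1d genes repress Arntl or the activators in turn. The levels of all the genes named here thus follow the time of day in the heart as elsewhere. The time of collection is not given in the sources used here, and a difference in it between groups cannot be told apart from the treatment. Of 18 tested clock genes, 10 were higher and 5 lower in treated SHR than in WKY, against 6 and 2 in untreated SHR. With median-of-ratios scaling the counts were 10 and 5, and 8 and 0. Among all tested genes the main fit called 10.2% higher and 14.6% lower in treated SHR, and 10.8% and 23.1% in untreated SHR. Of the 18, 8 remained, 7 were new and none fell away (20.9%, 4.0% and 13.0% of all tested genes). The treated counts changed little when 1 sample was left out (9 to 10 higher, 4 to 5 lower), while 1 to 6 were higher in untreated SHR, the 1 without WKY replicate 1 or untreated replicate 1. In untreated SHR the calls of Ciart and Arntl were each lost in 10 alternatives, of 17 and 18. That of Bhlhe41 was lost in 8 and that of Tef in 5, so the place of these 4 genes as remaining or new depended on the setting. Treated against untreated SHR called 7 higher and 2 lower, with 3 higher without untreated replicate 2 or treated replicate 1. The shares of all tested genes in that comparison were 0.153% higher and 0.0883% lower. On the log2(FPKM + 1) scale the largest 3 estimates of the 30 called genes, Dbp, Ciart and Arntl, were all clock genes.

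Among the repressors, Ciart, which binds the activator pair, had 0.38, 0.76 and 0.47 FPKM in WKY, 0.92, 0.97 and 1.29 in untreated SHR and 8.6, 6.44 and 8.6 in treated SHR. Treated SHR differed from WKY by 2.53 (SE 0.139, adjusted p = 5.78e-06), and untreated SHR by 0.43. Per3 had 2.16, 2.56 and 1.99 FPKM in WKY, 3.16, 3.13 and 3.74 in untreated SHR and 9.3, 9.38 and 10.3 in treated SHR, and the groups did not overlap. Per2 had 3.62, 4.53 and 5.36 FPKM in WKY, 3.71, 3.17 and 3.22 in untreated SHR and 6.97, 7.99 and 7.12 in treated SHR, with untreated SHR overlapping the lowest WKY sample and treated SHR above all of them. The difference of Per2 from WKY was −0.32 in untreated SHR (adjusted p = 0.0561) and 0.61 in treated SHR (adjusted p = 0.00515). Per1, an early responder to light and hormones, had 6.52, 7.31 and 10.6 FPKM in WKY, 14, 19.5 and 4.78 in untreated SHR and 13.1, 20.7 and 9.71 in treated SHR and passed no test (adjusted p = 0.239 against WKY).

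Bhlhe40 and Bhlhe41 encode repressors that compete for the E-box. Bhlhe41 had 5.87, 6.05 and 5.27 FPKM in WKY, 8.16, 6.41 and 7.81 in untreated SHR and 17.1, 12.9 and 15.4 in treated SHR, and Bhlhe40 had 18, 21.1 and 15.1 FPKM in WKY, 19.6, 19.6 and 18.3 in untreated SHR and 34.2, 31.5 and 32.4 in treated SHR. Both were called higher than WKY in treated SHR. In untreated SHR the adjusted p was 0.0479 for Bhlhe41 and 0.509 for Bhlhe40. Nr1d1 and Nr1d2, the REV-ERB repressors of Arntl, differed from WKY by 1.69 and 1.31 in treated SHR and by 0.85 and 0.50 in untreated SHR. Neither passed in treated against untreated SHR (adjusted p = 0.231 and 0.0762). Cry1 was lower and Cry2 higher than WKY in treated SHR, with log2 differences of −0.56 and 0.23.

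The activators ran the other way. Arntl had 23.1, 21.4 and 28.2 FPKM in WKY, 18.3, 18.3 and 19.4 in untreated SHR and 5.83, 6.73 and 4.99 in treated SHR, with a log2 difference of −1.88 from WKY (adjusted p = 8.59e-06) and −1.53 from untreated SHR (adjusted p = 0.000588). Npas2 had 6.95, 7.1 and 7.56 FPKM in WKY, 5.08, 6.69 and 5.23 in untreated SHR and 2.56, 3.3 and 2.4 in treated SHR, and Clock differed from WKY by −0.32 in treated SHR (adjusted p = 0.0328). Every treated sample of Arntl and Npas2 was below every sample of the other groups.

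Of the output genes, Dbp, a transcription factor gene that the clock drives directly, had 9.52, 15.8 and 9.01 FPKM in WKY, 17.1, 15.3 and 16.7 in untreated SHR and 80.97, 60.8 and 89.5 in treated SHR. It differed from WKY by 2.67 in treated SHR (SE 0.194, adjusted p = 3.48e-05) and by 0.52 in untreated SHR (adjusted p = 0.0653). With either other scaling Dbp was also called in untreated SHR, so its place as new depended on the scaling. Tef, of the same family, had 18.1, 20.8 and 15.8 FPKM in WKY, 24.1, 20.96 and 24.2 in untreated SHR and 42.9, 40 and 43.4 in treated SHR. Nfil3, a repressor of the same target sites, was lower than WKY by a log2 difference of −0.84 in treated SHR and −0.34 in untreated SHR. Rora, an activator of Arntl, was not called in either (adjusted p = 0.881 in treated SHR).

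**Figure D5:**
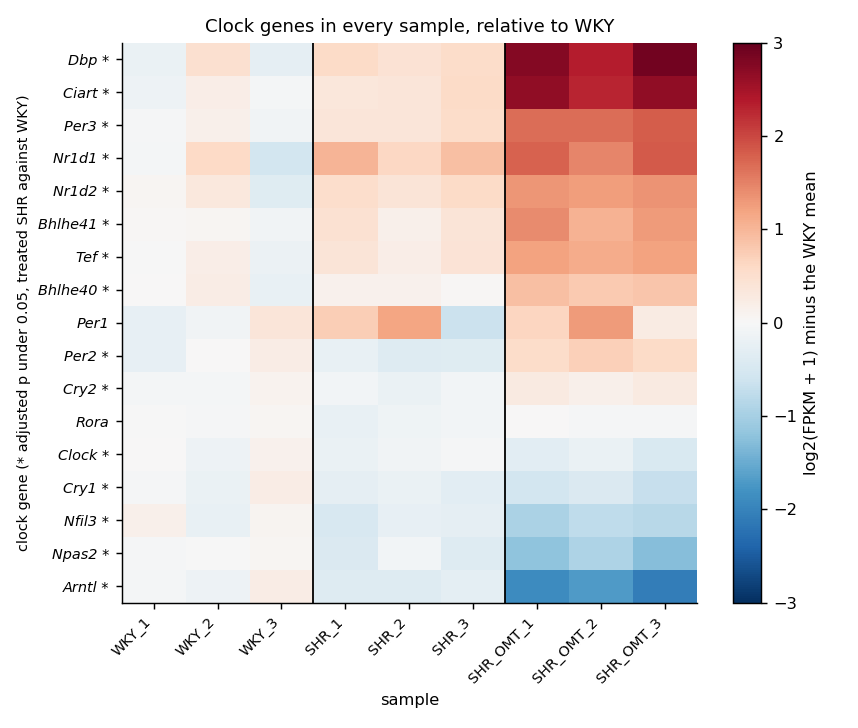
Each cell is log2(FPKM + 1) of 1 of the clock genes shown, in 1 sample, minus the mean of the 3 WKY samples, ordered by the difference of treated SHR from WKY; asterisks mark an adjusted p under 0.05 in treated SHR against WKY. The 3 treated samples share one pattern from Dbp at 2.67 down to Arntl at −1.88, and the untreated SHR samples lie near WKY for most genes, with weak shifts in the same direction in several.

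Promoters of 4 of these genes are shown because they carry the letters that clock factors are known to bind. Windows and source are those given for Ifi44l. Capitals mark the E-box CACGTG in the first 3 and the ROR and REV-ERB core TAGGTCA in Arntl, searched on both strands.
Ciart (chr2:186112197-186112496, minus strand): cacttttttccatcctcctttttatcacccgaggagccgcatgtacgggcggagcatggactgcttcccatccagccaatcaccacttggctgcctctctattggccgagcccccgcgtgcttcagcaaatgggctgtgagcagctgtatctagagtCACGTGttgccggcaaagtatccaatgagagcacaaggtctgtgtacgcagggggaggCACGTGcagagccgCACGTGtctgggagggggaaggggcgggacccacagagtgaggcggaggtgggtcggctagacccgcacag
Tef (chr7:115206577-115206876, plus strand): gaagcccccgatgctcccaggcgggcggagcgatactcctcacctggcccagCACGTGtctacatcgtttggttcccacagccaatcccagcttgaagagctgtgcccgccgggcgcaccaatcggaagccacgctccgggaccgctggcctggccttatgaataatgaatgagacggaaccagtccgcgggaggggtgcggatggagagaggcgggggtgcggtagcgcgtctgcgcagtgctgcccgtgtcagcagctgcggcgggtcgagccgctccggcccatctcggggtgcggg
Bhlhe41 (chr4:180569306-180569605, minus strand): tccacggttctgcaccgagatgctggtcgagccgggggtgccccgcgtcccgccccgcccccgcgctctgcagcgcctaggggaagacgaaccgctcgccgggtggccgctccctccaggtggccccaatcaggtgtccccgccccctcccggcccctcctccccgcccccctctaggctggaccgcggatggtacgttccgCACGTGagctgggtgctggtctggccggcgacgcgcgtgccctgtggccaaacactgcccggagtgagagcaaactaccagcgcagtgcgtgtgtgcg
Arntl (chr1:176766078-176766377, plus strand): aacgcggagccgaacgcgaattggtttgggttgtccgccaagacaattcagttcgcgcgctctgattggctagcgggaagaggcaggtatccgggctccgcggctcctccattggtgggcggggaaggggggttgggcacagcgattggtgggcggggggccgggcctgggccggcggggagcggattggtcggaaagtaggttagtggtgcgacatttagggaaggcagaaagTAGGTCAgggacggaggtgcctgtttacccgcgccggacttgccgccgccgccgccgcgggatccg
Ciart held 3 E-boxes in its window. Of 14 clock genes called in treated SHR against WKY and listed with a promoter, 4 (28.6%) held an E-box, against 945 of 9857 tested genes (9.59%). TAGGTCA was found in 1 of the 14, Arntl, and in 175 of all (1.78%). The D-box TTATGTAA was found in 1, Per2, and in 48 of all (0.487%). No motif searched overlapped another in the sequences shown. The absence of a match, as in the windows of Dbp and Per3, says only that these letters are not in the 300 bases searched.

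Outside the clock, Ephx1, the microsomal epoxide hydrolase, had 18.7, 19.6 and 20.6 FPKM in WKY, 21.2, 19.2 and 22.3 in untreated SHR and 33.6, 31.98 and 34.2 in treated SHR. Treated SHR stood above all other samples, by 0.73 from WKY (adjusted p = 9.65e-05) and 0.65 from untreated SHR (adjusted p = 0.00446). Ypel2, of the yippee-like family, had 19.4, 18.4 and 22.1 FPKM in WKY, 20.7, 23.3 and 24.2 in untreated SHR and 11.7, 12.2 and 12.5 in treated SHR and was lower in treated SHR than in either other group (adjusted p = 0.00341 against untreated SHR). With either other scaling it was also called higher than WKY in untreated SHR. The tetraspanin gene Tspan4 had 16.5, 16.3 and 13.7 FPKM in WKY, 15.1, 14.1 and 15.5 in untreated SHR and 22.6, 22.3 and 22.3 in treated SHR. The glutathione transferase gene Gstt1 had 4.46, 3.74 and 3.62 FPKM in WKY, 3.25, 2.89 and 3.31 in untreated SHR and 5.55, 5.42 and 4.72 in treated SHR. Its new call against WKY was lost in 4 of 17 alternatives. Its call against untreated SHR was lost in 15 of 17, both other scalings among them. With Dbp, Per2, Bhlhe40, Npas2 and the unnamed locus LOC100911766, these genes were among the 10 new differences that also passed in treated against untreated SHR. That call was lost in 15 of 18 alternatives for LOC100911766, 9 for Npas2, 8 for Tspan4 and Bhlhe40 and 7 for Per2. Dbp, Ciart, Per3, Arntl, Ephx1 and Ypel2 kept it in every alternative that tested them, as 6 of the 30 genes did.

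Further new differences were called against WKY but not against untreated SHR. Snx10 had 4.61, 4.68 and 4.6 FPKM in WKY, 5.27, 4.76 and 6.01 in untreated SHR and 7.51, 7.88 and 7.19 in treated SHR (adjusted p = 0.0896 for treated against untreated SHR). Adamts19, a secreted metalloproteinase gene, had 8.88, 8.81 and 8.6 FPKM in WKY, 7.43, 9.5 and 9.06 in untreated SHR and 5.97, 6.46 and 6.22 in treated SHR (adjusted p = 0.114). Smad6, an inhibitor of bone morphogenetic protein signals, had 7.61, 7.09 and 9.24 FPKM in WKY, 9.66, 6.9 and 8.58 in untreated SHR and 5.62, 5.79 and 4.55 in treated SHR (adjusted p = 0.157). Treated samples lay apart from both other groups in these 3 genes, which were picked for a small p in treated against untreated SHR. Treated and untreated samples did not overlap in 17.2% of all tested genes, and 24.6% were called against WKY without overlap. Of the 498 new differences, 10 reached 1 on the log2 scale, and 4 of them not yet described are named for that size, after their values were seen. Rasd2, a small GTPase gene, had 3.29, 3.15 and 4.28 FPKM in WKY, 7.4, 5.09 and 3.85 in untreated SHR and 9.29, 6.99 and 9.68 in treated SHR, and Sh2d4a had 4.9, 5.08 and 7.94 FPKM in WKY, 4.32, 3.48 and 4.2 in untreated SHR and 2.29, 2.86 and 1.9 in treated SHR. Aldh1a2, which makes retinoic acid, had 1.7, 2.41 and 1.64 FPKM in WKY, 2.22, 2.63 and 3.78 in untreated SHR and 4.87, 7.09 and 3.56 in treated SHR. Gpnmb, a glycoprotein gene of macrophages and other cells, had 8.13, 11.8 and 8.51 FPKM in WKY, 14.1, 12.3 and 18.6 in untreated SHR and 52.1, 25.2 and 11.3 in treated SHR, and its lowest treated sample lay below the highest WKY one.

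The remaining lists are set beside the 10.2% higher and 14.6% lower of all tested genes in treated SHR, and the 10.8% and 23.1% in untreated SHR. The counts of endoplasmic reticulum stress, p53 and inflammation genes in treated SHR were near or below those shares. Of 33 xenobiotic and antioxidant genes, 13 were higher and 4 lower in treated SHR (10 and 6 in untreated SHR), 14 of which remained, among them Srxn1 (0.84), Gstt3 (0.71) and Txnrd1 (0.41). Of 22 heat shock genes 7 were higher and 4 lower (9 and 4 in untreated SHR), with the small chaperone gene Hspb7 at 0.56 and the mitochondrial chaperone genes Hspa9 and Hspd1 at 0.58 and 0.27. Of 20 glucocorticoid-responsive genes 4 were higher and none lower (5 and 1), among them Klf9 (0.33) and Fkbp5 (0.32), and 1 was higher without WKY replicate 1. Of 20 genes of the p53 and apoptosis list 1, Ccng1, was higher (0.35) and 2, Bbc3 and Bax, lower (−0.53 and −0.29), against 4 and 3 in untreated SHR. Of 26 inflammation genes 2 were higher and 3 lower in treated SHR, against 1 and 11 in untreated SHR, so 8 fell away. Among all tested genes 13.0% fell away, and none of the 26 passed the test of treated against untreated SHR. With median-of-ratios scaling the untreated counts were 1 and 5, and without untreated replicate 2 they were also 1 and 5. The leukocyte adhesion gene Sele was higher (0.94) and the cytokine gene Il33 lower (−1.52). Of 21 endoplasmic reticulum stress genes 2 were higher and 2 lower (1 and 3). Of 19 immediate early genes Junb was higher and Jund lower (none and none), with log2 differences of 0.55 and −0.30. For the 19, either other scaling called 2 higher and none lower in untreated SHR. Leaving out 1 sample gave 0 to 1 higher and 0 to 3 lower in treated SHR. Among the other cell markers, 2 of 8 ventricular muscle genes were higher and 2 lower in treated SHR, 1 of 6 atrial genes was higher, and none of 8 smooth muscle and pericyte, 7 nerve and Schwann, 5 blood or 4 lymphocyte markers was called. In mast cell and neutrophil markers 1 of 5 was lower, in mesothelium 1 of 3 and in fat the 1 tested.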

How the data were processed

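Left ventricles of 3 groups of rats were profiled by RNA-seq, with 3 samples per group: WKY, SHR and SHR given oxymatrine. Per the labels' protocols, total RNA was taken up in Trizol, libraries were made with the KAPA RNA HyperPrep kit and sequenced on a BGISEQ-500. The deposited values are FPKM per gene and sample, made by the authors. Per the submitters' processing notes the tools named are Bowtie2, RSEM 1.3.1 and DESeq2 1.4.5 and the build Rnor_6.0, with no role or order given. The authors' log2 and Qvalue columns were not used. Counts and depths were not analysed here, so the precision of low values is unknown beyond the spread of 3 samples.

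Of 22864 gene rows 3570 held no values, and 27 symbols that had been turned into dates were restored. Symbols are spelled as deposited. The 12451 genes at or above 1 FPKM on average over the 9 samples were tested on log2(FPKM + 1), which understates the change of low genes, with limma 3.58.1 in R 4.3.3 as 1 fit over the 3 groups and a trend of variance with level. Tests were two-sided, and p-values were adjusted by Benjamini and Hochberg's method over all genes in each comparison. Called means an adjusted p under 0.05. Single genes are given with FPKM per sample, or as a log2 difference on the log2(FPKM + 1) scale where no unit is stated. The fit was tested on simulated data.

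The genes and lists were chosen with earlier results of these data known. The text names the genes with the largest differences among those called without overlap, the fallen-away and new genes with the smallest p in treated against untreated SHR, a set of heart genes, and up to 5 members of each list with the smallest p. Further genes named, such as the other clock genes, Ucp3 and those in the closing section, were chosen after their values were seen. Some genes that the rule covers are not reported here. Promoter sequences are those of RefSeq, build GRCr8, matched by gene ID for 9857 tested genes. Alternatives were another pseudocount (0.1), no filter and a mean of at least 5 FPKM, median-of-ratios scaling, quantile normalization, quality weights for the samples, a replicate block, a fit without the variance trend or without the third group, and leaving out each sample.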

Additional observations from a re-analysis of the deposited data

How the results depend on the processing

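No called direction reversed in any alternative among the 225 genes followed. Of the calls followed, 123 of 156 in treated SHR against WKY, 129 of 155 in untreated SHR against WKY and 6 of 30 in treated against untreated SHR were kept in every alternative that tested the gene. Requiring a log2 difference of at least 1 left 150 genes in treated SHR against WKY, 196 in untreated SHR against WKY, 7 in treated against untreated SHR, 116 remaining, 80 fallen away and 34 new. The size was required in each comparison, so a gene just under it in 1 of them counted as fallen away or new. At any size, 177 of the 196 were also called in treated SHR and 140 of the 150 in untreated SHR. The 30 genes of treated against untreated SHR became 12 with no filter on low values, 19 in a fit of only the groups compared, 17 with no variance trend and 14 with the replicate block. Leaving out 1 sample gave 1893 to 3043 genes for treated SHR against WKY, 2882 to 4218 for untreated SHR against WKY, 6 to 33 for treated against untreated SHR, 1590 to 2282 remaining, 948 to 2332 fallen away and 225 to 791 new. The cause of these moves was not tested. Deviations of samples with the same replicate number correlated between −0.109 and 0.0276, so the numbers were not treated as pairs. The fit with the replicate block called 2473, 3550 and 14 genes in the 3 comparisons, with 2064 remaining, 1486 fallen away and 409 new. Where a sample was left out, the fit pooled the spread over all groups. With 3 samples per group and no depth known, small differences in genes of low FPKM are the least certain.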

Other observations

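Several large strain differences that remained in treated ventricles were of genes next to each other in the genome. Of 129 genes that differed from WKY by at least 1 on the log2 scale, were called in both SHR groups and could be placed in the RefSeq gene order (GRCr8), 34 (26.4%) had another such gene within 3 tested genes on either side, against 649 of 11860 other genes (5.47%). Of the 28 placed genes called in treated against untreated SHR, none had another within that distance, against 166 of 11961 other genes (1.39%), so a count of 0 in so small a set says little. This is a description with no test.

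Some of these neighbours went the same way and others apart. Setd4, LOC102556347 and Cbr3 were all higher in treated SHR, Setd4 by 2.60 and LOC102556347 by 3.27, with Cbr3 listed at 0 in WKY. Haghl and Ccdc78 were both lower, with log2 differences of −1.26 and −1.83. Cd36 was lower and its neighbour RGD1565355, which RefSeq names Cd36l1, was higher, with 4.43, 14.1 and 13.5 FPKM in WKY, 121, 127 and 109 in untreated SHR and 104, 113 and 123 in treated SHR. Whether reads were divided between Cd36 and this relative was not tested. Ptgfr was higher and its neighbour Ifi44l lower, by 2.68 and −1.99, and the metallothionein genes Mt2A and Mt3 differed by 1.56 and −1.14.

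Spp1, which encodes osteopontin, a secreted protein of macrophages and injured tissue, had 2.39, 3.35 and 0.9 FPKM in WKY, 10.9, 3.28 and 33.4 in untreated SHR and 375, 49.2 and 2.38 in treated SHR. The treated samples thus ran from a WKY-like level to the highest of the series, and the comparison with WKY did not pass (adjusted p = 0.0829). Treated replicate 1, the highest in Spp1, was also the highest treated sample in Gpnmb, with 52.1, 25.2 and 11.3 FPKM in treated SHR.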
